A study of Bos taurus and Mus musculus with 16 samples.

Results

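The prostaglandin synthesis genes described here are 9 genes that release the precursor of prostaglandins, make prostaglandin E2 or break it down: Pla2g4a, Ptgs1, Ptgs2, Ptges, Ptges2, Ptges3, Hpgd, Ptgr1 and Ptgr2. They were found by symbol, ignoring case, in one expression table of mouse embryos and one of bovine embryos. Of the 9 genes, 6 were analysed in mouse, among 16655 genes, and 8 in bovine, among 14852 genes. Mouse Pla2g4a, Ptgs1 and Hpgd and bovine HPGD were not analysed here. The set was chosen because Ptges, the gene of microsomal prostaglandin E synthase, was lower in edited mouse embryos and tended to be lower in edited bovine embryos. The values of Ptges in edited against control embryos are therefore given as a description, with no test.

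Prostaglandins are short-lived lipid signals made from arachidonic acid, a fatty acid held in membrane phospholipids. Cytosolic phospholipase A2 (Pla2g4a) frees arachidonic acid, the cyclooxygenases (Ptgs1 and Ptgs2) turn it into prostaglandin H2, and terminal synthases (Ptges, Ptges2 and Ptges3 for prostaglandin E2) make the final product. Prostaglandins are inactivated by 15-hydroxyprostaglandin dehydrogenase (Hpgd) and then by the prostaglandin reductases (Ptgr1 and Ptgr2). In mammalian reproduction the pathway is best known for its parts in ovulation, implantation and the embryo's exchange with the uterus.

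Every embryo in the study had been injected as a zygote with mRNA of BE3, which is a base editor for cytosines built from a Cas9 nickase and a cytidine deaminase. Control embryos received BE3 mRNA alone. Edited embryos received it with a mix of single guide RNAs against Tead4 in mouse or TEAD4 in cattle, the gene of a transcription factor needed for trophectoderm formation in the mouse. The mouse samples are morulae of day 3.25, 2 per group, and the bovine samples are blastocysts of day 7.0, 6 per group. The sources used here give neither the strain nor the number of embryos in a sample, nor the editing outcome in single cells. The controls held no guide RNA, so other effects of guide RNAs and the loss of TEAD4 cannot be told apart. Nothing in the labels says whether the samples came from separate rounds of injection, so the p-values measure only how far these samples spread, and that spread may be technical.

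Values are reads per gene divided by a size factor for each sample, called normalized reads below. The mouse libraries held 3642907 to 6109425 reads and the bovine ones 817329 to 2501592, so a count of 3 reads corresponded to 2.13 to 3.79 normalized reads in mouse and 1.71 to 5.56 in bovine. Tead4 itself was at 458 and 519 normalized reads in the mouse controls and 57.2 and 76.5 in the edited morulae, a log2 fold change of -2.86 (adjusted p = 5.37e-09, limma). Bovine TEAD4 went from 61.2 to 125 in the controls to 22.6 to 65.6 in the edited blastocysts, a log2 fold change of -1.25 that missed the threshold in limma (adjusted p = 0.235) and passed it in DESeq2 (-1.21, adjusted p = 0.007). In edited morulae 5 of 8 tested trophectoderm markers fell (8.38% of all tested genes did) and 4 of 7 inner cell mass markers rose (6.92% did). The trophectoderm markers not called were Tfap2a (log2 fold change -2.12, on few reads), Tfap2c (0.18) and Eomes (0.46). Those of the inner cell mass were Sox2 (1.04), Fgf4 (0.61) and Nanog (-0.58). Summed trophectoderm levels were 1994 to 2191 against 6418 to 7483 in controls, where Krt8 (mean 2835) and Krt18 (2079) gave the most. In bovine, where 1 of 8884 tested genes passed, 0 of 6 trophectoderm markers did. Their log2 fold changes ran both ways: GATA2 -0.43, TFAP2C -0.35, GATA3 -0.02, KRT18 0.05, KRT8 0.14 and ID2 0.29. TFAP2C (unadjusted p = 0.033, adjusted p = 0.792, limma) had all 6 edited samples below the control median. The summed levels of these markers overlapped (11157 to 21462 in control, 8484 to 21525 in edited). These are bulk samples, so fewer cells of a type and less RNA per cell cannot be told apart. Markers of cumulus and granulosa cells, which surround the oocyte and make prostaglandins, were low: 6 of 16 were listed in mouse (summed level 120 to 182 in control, 203 to 259 in edited) and 8 of 16 in bovine (23.4 to 81.8 in control, 15.6 to 48.2 in edited). None of the 3 tested mouse markers passed, and the part of such cells in the values below was not tested.

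Ptges, which encodes the inducible, membrane-bound synthase that makes prostaglandin E2 downstream of cyclooxygenase-2, was the gene that set the choice. It lies on chromosome 2 from 30889471 to 30929863 on the minus strand (GRCm38, gene ENSMUSG00000050737.13), and a processed pseudogene is annotated within its span on the same strand. Control morulae held 580 and 703 normalized reads (519 and 556 reads), and edited morulae 35.3 and 44.7 (37 and 63 reads). Both edited libraries were far below both controls, and the edited mean was 6.23% of the control mean. The log2 fold change was -3.97 ± 0.25 (SE, given as a description), and it lay between -4.14 and -3.81 when any one library was left out. The authors' deposited table gives -3.99 ± 0.28 (SE) for the same gene.

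Bovine PTGES was much more variable between libraries. The 6 control blastocyst samples held 110, 4.62, 72.9, 58.9, 41.1 and 108 normalized reads, and the 6 edited samples 28.5, 16.7, 39.6, 20.1, 13.2 and 18.4. All 6 edited samples were below the control median of 65.9, and 5 of the 6 controls were above the highest edited sample. The exception was control 2, the shallowest control library, with 3 reads of PTGES. The edited mean was 34.4% of the control mean, and the log2 fold change of PTGES was -1.12 ± 0.53 (SE, given as a description and not as a test). Without control 2 it was -1.74, and with edgeR or DESeq2 on reads it was -1.56 with all samples in. The authors' deposited table gives -1.55 ± 0.44 (SE).

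**Figure D1:**
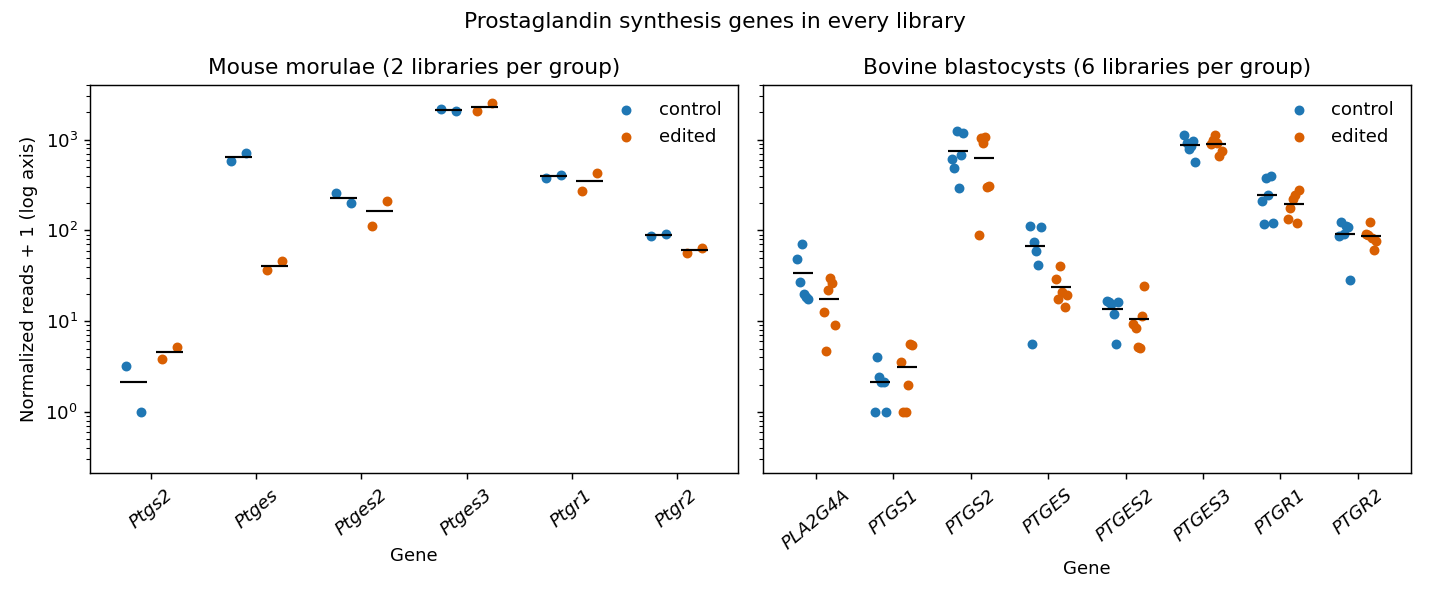
Normalized reads (plus 1, log axis) of each listed gene in every library, with mouse morulae on the left (2 control and 2 edited) and bovine blastocysts on the right (6 and 6); each point is 1 library and each bar a group mean. Mouse Ptges stands at 580 and 703 in control against 35.3 and 44.7 in edited, and no other tested mouse gene differs by as much between groups; in bovine the groups overlap for every gene.

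Outside Ptges, 0 of the 4 other tested genes passed the threshold in mouse, where 15.3% of all 11386 tested genes did (limma on log2 values, Benjamini-Hochberg adjustment over all genes, adjusted p under 0.05). In bovine 0 of 6 passed, where 0.0113% of all 8884 tested genes did. The 6 include PTGES2, which met the filter of a mean of at least 10 only through the control group. With so few genes called in bovine, a count of 0 among 6 was near the background. At an unadjusted p under 0.05 there was 1 of the 4 in mouse (Ptges2, background 28.6%) and 1 of the 6 in bovine (PLA2G4A, background 5.88%). With edgeR or DESeq2 none of these genes passed in either species. Groups did not overlap for 1 of the 4 genes in mouse, Ptgr2, against 57.8% of all tested genes, and for 0 of 6 in bovine, against 0.248%.

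The first step of the pathway was read in bovine only. PLA2G4A, the arachidonate-selective cytosolic phospholipase A2, was at 16.6 to 70.0 normalized reads in the 6 controls (median 22.6) and at 3.71 to 29.1 in the 6 edited samples (median 16.4). Control 1 and control 3, at 47.3 and 70.0, were above every edited sample, and 3 edited samples were below the lowest control. The log2 fold change was -1.002 ± 0.446 (SE; 95% interval -1.93 to -0.07), which did not pass after adjustment (adjusted p = 0.792, limma). The counts behind it were small, 15 to 48 reads per control library and 2 to 44 per edited library.

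Ptgs2 had few reads in the mouse morulae and many in the bovine blastocysts, and species and stage cannot be told apart here. Mouse Ptgs2, the inducible cyclooxygenase-2, had 2 and 0 reads in the control morulae and 3 and 6 in the edited morulae, too few to test. All 4 mouse values were at or near the level of 3 reads, so no fold is given. In bovine blastocysts PTGS2 was read well, with 315 to 1183 reads per control library and 137 to 1058 per edited library. Control samples held 610, 485, 1236, 292, 675 and 1167 normalized reads, and edited samples 88.8, 1041, 914, 1061, 302 and 307. Of the edited samples 3 were at 914 to 1061 and 3 at 307 or lower, and both groups spanned much the same range. The log2 fold change was -0.55 ± 0.49 (SE; 95% interval -1.59 to 0.48, adjusted p = 0.833, limma), and it was -0.09 without edited 1, the lowest sample. Bovine PTGS1, the constitutive cyclooxygenase-1, had 0 to 2 reads per control library and 0 to 8 per edited library and was not tested. The symbols COX1 and COX2 in the tables stand for mitochondrial cytochrome oxidase subunits and were not read as cyclooxygenases.

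Across the 12 bovine samples, PTGS2 was lower in deeper libraries once each group's mean was removed (Pearson r = -0.64, permutation p = 0.031; Spearman rho = -0.63, permutation p = 0.033). This relation did not pass after adjustment over the 14 relations of 7 genes with depth and with the ribosomal RNA share (adjusted p = 0.439 for r and 0.461 for rho). Without the 2 samples farthest from the median it was -0.64, and it was -0.35 within the controls and -0.84 within the edited samples. The part of depth in the spread of PTGS2 was not tested further.

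Besides Ptges, 2 other genes carry a prostaglandin E synthase name. Ptges2 encodes a membrane-associated synthase with a thioredoxin-like fold, and lies on the same mouse chromosome (chromosome 2, 32395896 to 32405772, plus strand). It was at 257 and 201 normalized reads in control morulae and at 111 and 211 in edited morulae. Edited 1 was below both controls and edited 2 lay between them. The log2 fold change was -0.57 ± 0.27 (SE; adjusted p = 0.164, limma), -0.11 without edited 1 and -1.03 without edited 2 (adjusted p = 0.002). The call for Ptges2 thus turned on 1 library. Bovine PTGES2 was low, at 4.56 to 15.8 in control (median 15.0) and 4.01 to 23.6 in edited (median 7.92), with 3 to 32 reads per library. Of the 6 edited samples 5 were below the control median, and edited 6 was above every control. The control mean of PTGES2, 12.8, was above the filter of 10 and its edited mean of 9.67 below it, so it was tested only through the control group. Its log2 fold change of -0.50 ± 0.43 (SE), which did not pass (adjusted p = 0.825, limma), is given as a description.

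Ptges3 encodes p23, a cytosolic protein with prostaglandin E synthase activity that is better known as a co-chaperone of HSP90. It lies on mouse chromosome 10 from 128058954 to 128077272 (plus strand), and the annotation holds a processed pseudogene of it, so its reads may be shared. Control morulae held 2198 and 2088 normalized reads and edited morulae 2065 and 2557. Bovine PTGES3 was at 566 to 1122 in control (median 881) and 655 to 1115 in edited (median 904). The groups overlapped in both species. The log2 fold changes were 0.10 ± 0.17 in mouse (95% interval -0.24 to 0.44, adjusted p = 0.735, limma) and 0.04 ± 0.18 in bovine (-0.33 to 0.42, adjusted p = 0.969).

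Both prostaglandin reductases were read in both species. Ptgr1, which reduces the 15-keto prostaglandins and also leukotriene B4 products, was at 373 and 410 normalized reads in control morulae and 273 and 431 in edited morulae (log2 fold change -0.19 ± 0.22, SE; adjusted p = 0.619, limma). The 2 edited libraries lay on either side of the controls. Bovine PTGR1 ranged from 117 to 397 in control (median 227) and from 118 to 281 in edited (median 200), with a log2 fold change of -0.22 ± 0.30 (SE; adjusted p = 0.900). Every edited sample lay within the control range.

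Ptgr2 encodes the other 15-keto prostaglandin reductase. It was at 86.0 and 91.1 normalized reads in control morulae and 55.3 and 63.8 in edited morulae, the only tested gene of the set besides Ptges whose mouse groups did not overlap. The log2 fold change of -0.57 ± 0.32 (SE; 95% interval -1.22 to 0.08) did not pass (adjusted p = 0.243, limma). A gene annotated on the opposite strand overlaps its end, and the sources used here do not say whether counting used the strand. Bovine PTGR2 was at 27.6 to 122 in control (median 99.7) and 59.1 to 122 in edited (median 84.7), and the log2 fold change was 0.01 ± 0.29 (SE; adjusted p = 0.993). Without control 6, the lowest library, it was -0.30, and it was -0.10 with edgeR or DESeq2, so it had no stable direction.

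Per kilobase of transcript, levels can be set beside each other within mouse. With the median transcript length of each gene, control morulae ranked Ptges3 first at 1375 ± 49.8 normalized reads per kilobase (SD, n = 2), then Ptges at 1030 ± 140, Ptges2 at 299 ± 51.7, Ptgr1 at 171 ± 11.3, Ptgr2 at 63.9 ± 2.56 and Ptgs2 at 0.46 ± 0.66. No 2 neighbours in this order overlapped between their control libraries. In edited morulae the order was Ptges3 at 1482 ± 223, Ptges2 at 210 ± 92.3, Ptgr1 at 153 ± 48.7, Ptges at 64.1 ± 10.6, Ptgr2 at 43.0 ± 4.33 and Ptgs2 at 1.48 ± 0.41, and there Ptges2 and Ptgr1 did not differ beyond their spread. Ptges thus stood behind Ptgr1 in edited morulae, and moved from above 91.9% of all tested genes to above 48.2%. With the longest transcript of each gene Ptgr1 (171) came before Ptges2 (46.0) in control and was near Ptges (176). In edited morulae Ptges (10.96) then came after Ptgr2 (18.8), and it moved from above 82.8% of tested genes to above 26.7%, so the places behind Ptges3 depend on the transcript chosen.

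**Figure D2:**
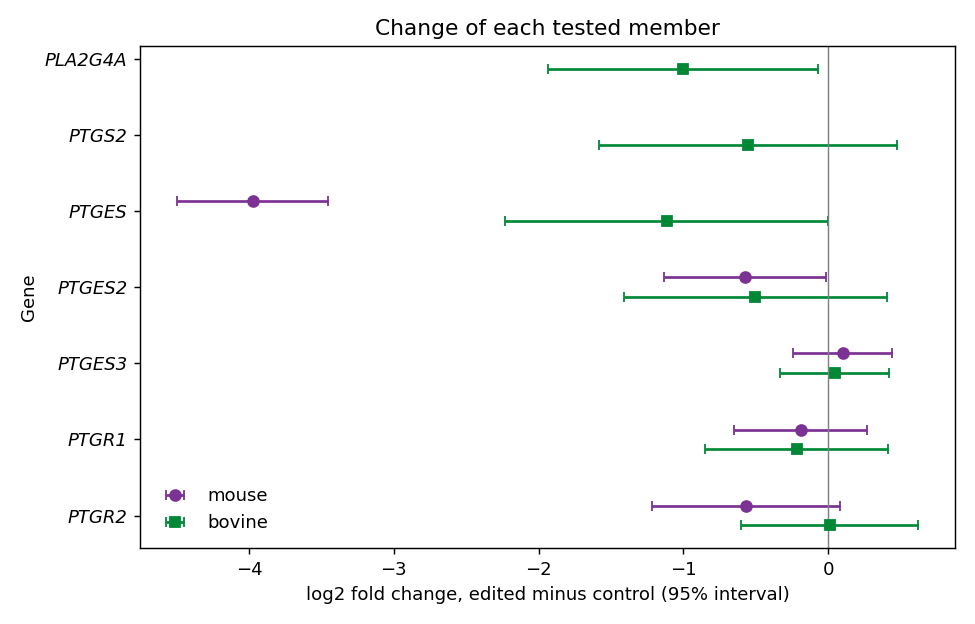
Log2 fold change, edited minus control, of each tested gene in mouse (circles, 2 against 2 samples) and bovine (squares, 6 against 6), with 95% intervals from limma. Mouse Ptges lies at -3.97, and each of the 4 other genes tested in both species has its mouse and bovine intervals overlapping. The intervals of Ptges and PTGES are a description and no test, since their values chose the set.

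The log2 fold changes of the 4 other genes tested in both species were set against each other, although the stages differ (morula and blastocyst) and the tables were normalized separately. The difference of the log2 fold changes (mouse minus bovine) was -0.07 for PTGES2 (95% interval -1.11 to 0.97), 0.06 for PTGES3 (-0.44 to 0.55), 0.03 for PTGR1 (-0.73 to 0.79) and -0.58 for PTGR2 (-1.45 to 0.29). None of the 4 passed (adjusted p = 0.458 or more, from limma standard errors, adjusted over 7073 shared symbols), where 6.07% of the shared symbols did. These intervals reached as low as -1.45 (PTGR2) and as high as 0.97 (PTGES2), so differences of such sizes lie within the error. PTGES2 was compared although it met the bovine filter only through the control group. For PTGES, whose changes chose the set, the difference of -2.86 is given as a description only, with no test.

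The 21 pairs of the 7 tested bovine genes were compared across the 12 samples after each group's mean was removed. PTGES3 and PTGR2 had the highest correlation (Pearson r = 0.80, permutation p = 0.005; Spearman rho = 0.58, permutation p = 0.049). It did not pass after adjustment over the 21 pairs (adjusted p = 0.098 for r and 0.840 for rho), and r was 0.41 without the 2 samples farthest from the median. PTGES and PTGS2, which act one after the other, had r = 0.17 (permutation p = 0.521, adjusted p = 0.902; rho = 0.14, permutation p = 0.640, adjusted p = 0.840).

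A wider list of 94 genes of the eicosanoid pathway was read beside the set. It held other phospholipases, genes that handle arachidonic acid, other prostanoid synthases, receptors, carriers and the lipoxygenase branch, each with related genes. In mouse 61 were listed and 44 tested, of which 3 rose and 5 fell in edited morulae. Of the 3, Pla2g4e passed the filter on low values only through the edited group, which leaves 2 that rose. The background, from which such genes were not taken out, was 6.92% of all tested genes higher and 8.38% lower. The median log2 fold change of the 44 was -0.10, against -0.005 over all tested genes. Of these 44, Daglb and Alox8 met the filter only through the control group, and Ptges3l only through the edited group. None of these was called. Trophectoderm markers moved with these changes, as given above, and their part was not tested.

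Among the other prostanoid synthases and related genes, 1 of 8 tested genes rose and 2 fell. Akr1b8, an aldo-keto reductase, was at 1326 and 1381 normalized reads in control and 208 and 274 in edited morulae, a log2 fold change of -2.50 ± 0.19 (SE; adjusted p = 1.07e-09, limma). It has close paralogs, Akr1b7 and Akr1b10, so the share of reads that is its own is uncertain. Whether the product of Akr1b8 makes a prostanoid was not tested. Akr1b3, aldose reductase, which also makes prostaglandin F2 alpha, rose from 25.3 and 44.7 to 105 and 110 (log2 fold change 1.64 ± 0.35, adjusted p = 0.002, and 0.070 without control 2). Fam213b, a prostamide and prostaglandin F synthase, fell from 58.1 and 62.0 to 6.67 and 18.4 (log2 fold change -2.32 ± 0.50, adjusted p = 0.002, and 0.056 without control 2). The groups did not overlap for any of these 3 genes, and neither did they for 57.8% of all tested mouse genes. Prostacyclin synthase (Ptgis, log2 fold change -0.16, and 0.014 with equal totals set without the most abundant feature) and the carbonyl reductases Cbr1 (0.24) and Cbr2 (0.62) did not pass.

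Among the 11 tested phospholipases A2 and related genes 1 fell, and Pla2g4e was also called higher. Pla2g4e, a relative of Pla2g4a that also makes N-acyl phosphatidylethanolamines, was at 3.79 and 11.2 normalized reads in control (3 and 10 reads) and at 38.3 and 123 in edited morulae. Its control mean of 7.48 was below the filter of 10, so it was tested only because the edited group was high, and its log2 fold change of 3.19 ± 0.58 (SE) is given as a description. Pla2g12a, a secreted phospholipase A2, fell from 283 and 396 to 153 and 164 (log2 fold change -1.08 ± 0.23, adjusted p = 0.002, and 0.150 without control 1). Plaa (not itself a phospholipase), Pla2g15 and Pla2g16, the most abundant that did not pass, had log2 fold changes of 0.16, -0.36 and -0.19.

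Of the 10 genes that handle arachidonic acid, 1 fell. Mgll, monoacylglycerol lipase, which frees arachidonic acid from 2-arachidonoylglycerol, went from 153 and 286 to 98.2 and 123 (log2 fold change -0.93 ± 0.28, SE; adjusted p = 0.026, limma). It was -0.48 (adjusted p = 0.524) without control 1, and the call was lost when samples were scaled to the same total (adjusted p = 0.054). Lpcat3, which puts arachidonic acid into phospholipids, was at -0.43, the elongase gene Elovl5 at -0.20 and the fatty acid carrier gene Fabp5 at -0.12, none of them past the threshold. Fabp5 had no stable direction, since it was 0.0054 with equal totals.

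Of 4 tested receptor genes, Ppard, a nuclear receptor that binds fatty acids and some prostanoids, rose from 27.8 and 33.5 to 64.5 and 85.8 normalized reads (log2 fold change 1.26 ± 0.37, SE; adjusted p = 0.022, limma). The call was lost without control 1, control 2 or edited 1 (adjusted p = 0.078, 0.154 and 0.148) and with DESeq2 (0.063). Its partners Rxra (0.09) and Rxrb (-0.48) and the gene Ptgfrn (0.51), whose product binds the prostaglandin F receptor, were not called. None of the 3 carriers and exporters passed: Slco2a1, the prostaglandin uptake carrier, had a log2 fold change of -0.75, Abcc1 -0.78 and Abcc4, the prostaglandin exporter, -0.09 (0.030 with equal totals).

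In the lipoxygenase branch 1 of 8 tested genes fell, Mgst3, a membrane-bound glutathione transferase, from 40.5 and 45.8 normalized reads in control to 7.63 and 23.4 in edited (log2 fold change -1.60 ± 0.52, SE; adjusted p = 0.037, limma). The call was lost with edgeR (adjusted p = 0.073), with DESeq2 (0.163), without control 1, control 2 or edited 1 (0.248, 0.166 and 0.301) and under 4 other settings, and the log2 fold change was -0.85 without edited 1. Alox12 (0.15), Aloxe3 (0.96) and Lta4h (-0.19), the most abundant that did not pass, include 2 lipoxygenases and leukotriene A4 hydrolase.

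**Figure D3:**
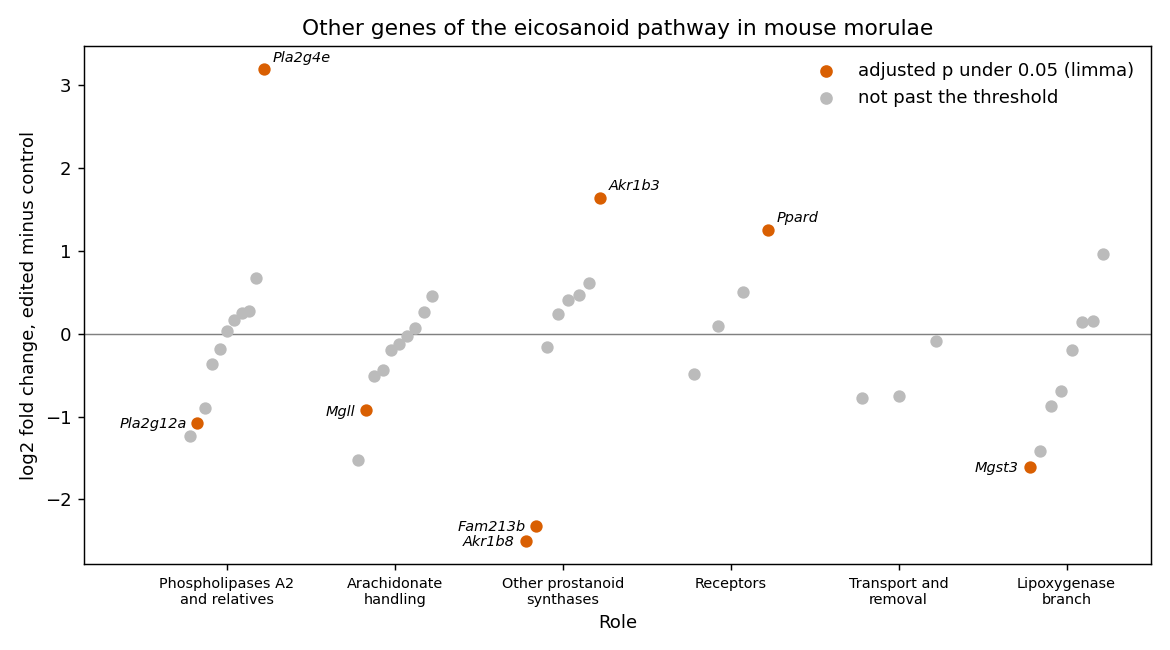
Log2 fold change, edited minus control, of the 44 tested genes of the wider eicosanoid list in mouse morulae, grouped by role; each point is 1 gene, and the named orange points passed an adjusted p of 0.05 (limma). Of these 8, Pla2g4e, Akr1b3 and Ppard lie above 0, and Akr1b8, Fam213b, Mgst3, Pla2g12a and Mgll below it. Pla2g4e and the uncalled Ptges3l passed the filter on low values only through the edited group. Daglb and Alox8, both uncalled, passed it only through the control group.

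Ptges and Mgst3 belong to one family of small membrane proteins, the MAPEG family of glutathione-dependent enzymes. Its other members were looked up after the values of these genes had been seen, so their values are given only side by side. In mouse Alox5ap, the activator of 5-lipoxygenase, was at 33.5 and 36.7 in control and 12.4 and 12.8 in edited (log2 fold change -1.41 ± 0.51, SE; adjusted p = 0.061, limma), and Mgst2 was at -0.69 on the log2 scale (adjusted p = 0.536). In bovine MGST1 was at 0.27, MGST2 at -0.002 and MGST3 at -0.12 on the log2 scale, none past the threshold. The direction of bovine MGST2 was not stable, since it was 0.12 with equal totals.

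In bovine 46 genes of the wider list were listed and 26 tested, and 0 passed with limma, edgeR or DESeq2. The lowest adjusted p was 0.792, and 3 of the 26 had an unadjusted p under 0.05, against 5.88% of all tested genes. That number was 1 with equal totals, without control 6 or without edited 5. The 3 were named after their values were seen: the desaturase genes FADS2 (log2 fold change -1.12 ± 0.44, SE) and FADS1 (-0.62 ± 0.27) and the elongase gene ELOVL5 (-0.52 ± 0.20), each with an adjusted p of 0.792 (limma). FADS2 was at 15.0 to 68.5 in control and 5.16 to 45.3 in edited, and 5 of 6 edited samples were below the control median. ELOVL5 was at 80.5 to 165 in control and 65.1 to 114 in edited, and all 6 edited samples were below the control median.

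The most abundant bovine genes of each role had these log2 fold changes, none past the threshold. Among the phospholipases and related genes PLAA was at 0.23, PLA2G15 at 0.06 and PAFAH2 at 0.24. Of the genes that handle arachidonic acid, ACSL3 was at 0.13, ACSL4 at -0.67 and ANXA1, whose product inhibits phospholipase A2, at -0.04 (0.084 with equal totals). The bovine synthase genes AKR1B1 (0.20), FAM213B (0.23) and CBR3 (-0.05, and 0.063 with equal totals) did not pass. The receptor group had PPARD at -0.40, RXRB at -0.30 and PTGFRN at -0.32, and all 6 edited samples were below the control median for PTGFRN. The exporter gene ABCC1 was at -0.15, and LTA4H and EPHX2, listed with the lipoxygenase branch, were both at 0.32. Of the 22 wider-list genes tested in both species, 2 differed between them (limma standard errors, adjusted over the 7073 shared symbols, of which 6.07% passed). For FAM213B the log2 fold change was lower in mouse, by a difference of -2.55 (95% interval -3.78 to -1.32, adjusted p = 0.008), and for PPARD it was higher in mouse by 1.66 (0.68 to 2.63, adjusted p = 0.031). The call for FAM213B was lost without mouse control 1 (0.088) or control 2 (0.080). That for PPARD was lost with DESeq2 (0.055), without mouse control 1, control 2 or edited 1 (0.096, 0.124 and 0.138) and without bovine control 2, control 6 or edited 6 (0.053, 0.057 and 0.057).

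Because Ptges3 encodes a co-chaperone, its partners in the HSP90 machinery were read too. In mouse 2 of 9 tested rose and 2 fell (6.92% and 8.38% of all tested genes did), while Ptges3 itself did not pass. Egln1, an oxygen-sensing prolyl hydroxylase that p23 binds, fell from 682 and 686 to 293 and 366 normalized reads (log2 fold change -1.06 ± 0.20, SE; adjusted p = 0.0006, limma). Hsp90aa1, the stress-inducible HSP90, went from 46698 and 51357 to 28545 and 35201 (-0.63 ± 0.17, adjusted p = 0.010). The kinase co-chaperone Cdc37 rose from 664 and 684 to 1194 and 1204 (0.83 ± 0.17, adjusted p = 0.002), and the adaptor Stip1 from 4991 and 5965 to 7426 and 7870 (0.49 ± 0.16, adjusted p = 0.036).

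Of these 4 calls only that of Egln1 held without each of the 4 libraries in turn. Hsp90aa1 was lost without control 1, control 2 or edited 1 (adjusted p up to 0.144), Cdc37 without control 2 (0.060), and Stip1 without control 1, control 2 or edited 1 (up to 0.397). Hsp90ab1 (-0.21), Ahsa1 (-0.23) and Fkbp4 (-0.35) did not pass. In bovine 0 of 8 partners passed with limma (0 at an unadjusted p under 0.05), with HSP90AA1 at -0.19, HSP90AB1 at 0.06 and STIP1 at 0.54.

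The genes that lie next to Ptges on mouse chromosome 2 were read to see whether the difference extended along the chromosome. They were the 3 nearest protein-coding genes on each side and were chosen after values of other genes had been seen. Of the 6, 5 were tested, with log2 fold changes from -0.17 to 1.10, none of them near the -3.97 of Ptges. Asb6, whose near end is 59.1 kb away and which encodes a substrate adaptor of a ubiquitin ligase, rose from 62.6 and 102 to 164 and 183 (1.10 ± 0.29, SE; adjusted p = 0.009, limma), and missed the threshold without control 1 (0.240). Tor1b at 23.1 kb, Tor1a at 30.8 kb, BC005624 at 42.3 kb and Ntmt1 at 66.4 kb had log2 fold changes of 0.46, -0.17, 0.21 and 0.57, and did not pass. The direction of Tor1a was not stable, since it was 0.0025 with equal totals set without the most abundant feature. The bovine genes of the same names, 4 of them tested, lay between -0.05 and 0.32 and none passed (lowest adjusted p = 0.869, limma).

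**Figure D4:**
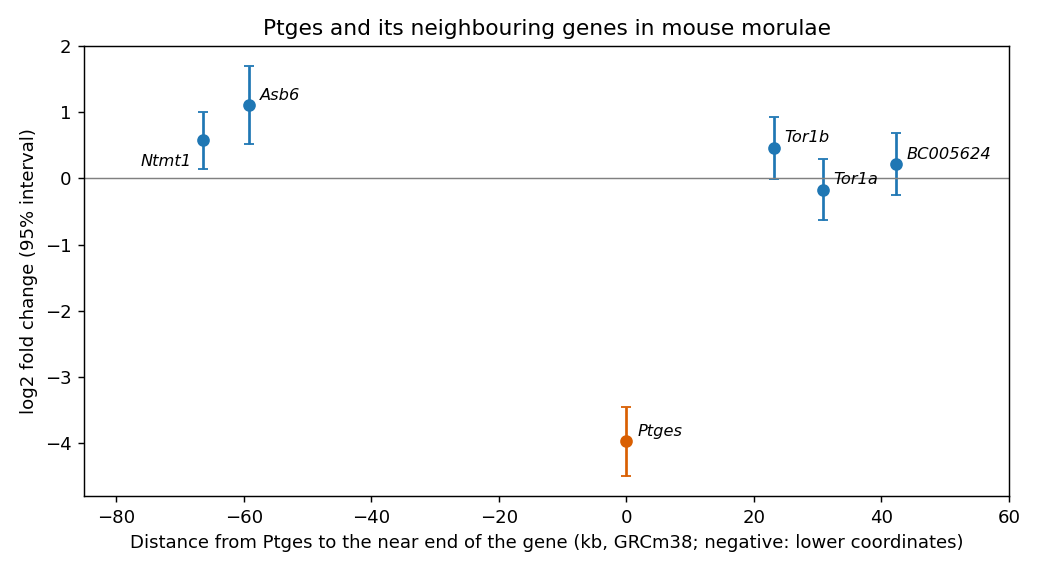
Log2 fold change (edited minus control, 95% interval from limma) of Ptges and the 5 tested neighbouring genes in mouse morulae, against the distance in kb from Ptges to the near end of each gene. Ptges stands alone at -3.97, and its neighbours lie between -0.17 and 1.10. The interval of Ptges is a description and no test, since its values chose the set.

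The genes most like Ptges were named by one measure per species, with no test, since likeness to Ptges chose them. In mouse the measure was the distance between log2 values centred on each gene's mean over the 4 samples, among 7031 genes with a mean of at least 50. Id2, an inhibitor of basic helix-loop-helix factors and 1 of the trophectoderm markers above, was nearest at 0.37, with 198 and 286 normalized reads in control and 12.0 and 12.4 in edited morulae. S100a11, a calcium-binding protein gene, followed at a distance of 0.59 (882 and 1147 against 40.04 and 90.7). Dab2, which encodes an endocytic adaptor, was at 0.61 (1345 and 1394 against 87.9 and 118). Trp53bp2 (307 and 402 against 26.9 and 36.2) and Gsta4, a glutathione transferase gene (116 and 172 against 16.2 and 16.3), came next at 0.75 and 0.98. With 4 samples in 2 groups, this measure mostly reads the size of the group difference.

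In bovine the measure was the Pearson correlation with PTGES over the 12 samples, among 4092 genes. MYO5A, the gene of myosin Va, had r = 0.92 (0.90 after each group's mean was removed), with 27.7 to 82.9 normalized reads in control and 31.7 to 56.6 in edited. PAG2, a pregnancy-associated glycoprotein gene of the trophoblast, had r = 0.85 (0.81) and ranged from 6.16 to 206 in control and from 7.46 to 139 in edited, and its family has many near-identical copies, so its own reads are uncertain. CNOT1, TACC3 and PFDN5 had r = 0.83, 0.82 and 0.81. Control 2, the library with 3 reads of PTGES, held the lowest control value of all 5 genes. Without it r was 0.89 for MYO5A, 0.83 for PAG2, 0.72 for CNOT1, 0.80 for TACC3 and 0.69 for PFDN5. Over all tested bovine genes control 2 held the lowest of the 6 control values in 16.6% of cases. Its summed trophectoderm markers (12183) lay within the range of the other controls, where KRT8 (control mean 9056) and KRT18 (4791) gave the most. The reason for the low PTGES of control 2 was not tested.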

How the data were processed

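Polyadenylated RNA of 16 embryo samples was made into Smart-seq2 libraries, per the labels' protocols. Trimmomatic, HISAT2, featureCounts and DESeq2 and the builds mm10 and ARS-UCD1.2 are named in the submitters' processing notes, and the sources used here give no versions, annotation or strand setting. The deposited signal values are gene-level reads divided by the size factor of each sample, as the values show and per the file headers. The authors' log2 fold changes, their test statistic (a score, not used) and their p-values stand in the same deposited tables, per the file headers. Every value was a whole multiple of 1 read (100% within 0.05 reads), so reads were recovered for edgeR 4.0.16 and DESeq2 1.42.0, which were run as alternatives.

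Genes with a mean of at least 10 (11386 in mouse, 8884 in bovine) were tested on log2(value + 1) with limma 3.58.1 in R 4.3.3 (trend, edited minus control, two-sided), within each table, with Benjamini-Hochberg adjustment over all tested genes and a threshold of 0.05. Such a fold change understates the change of low genes. All adjusted p-values are limma's unless another tool is named. Simulated data for each table had 100 genes changed 2-fold and 100 changed 4-fold. Of these limma recovered 38% and 73% in mouse (11386 genes), and 42% and 95% in bovine (8884 genes). In the mouse data 15.3% of genes were called, a larger share than was changed in the simulation, so recovery there may differ. No 2 libraries agreed within sampling noise (chi-square per degree of freedom of at least 6.03). Replicate numbers were not taken to pair the samples.

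The set and all lists were chosen with earlier results of these data known. Named genes are the 9 genes, each wider-list gene that passed, up to 3 per role that did not with the highest mean, Tead4 and the 5 genes most like Ptges in each species, from genes with a mean of at least 50. The HSP90 partners were named by the same rule, and exceptions are marked where they stand. Species were compared through the difference between both log2 fold changes, whose standard error combined those of limma in quadrature. Pairs of bovine genes were tested with 100000 permutations. Mouse coordinates and transcript lengths come from GENCODE M21 (GRCm38, mm10); no bovine coordinates of the authors' build were used. Alternatives were other pseudocounts, filters, tools, scalings, a replicate block, removal of a transcript-length trend (mouse) and leaving out each library.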

Additional observations from a re-analysis of the deposited data

Results flagged for a closer look

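Of 16 groups of 6 bovine values examined, 2 held a library that stood apart from the other 5 by Dixon's test at the 95% level, where chance gives about 1 group in 20. PTGES2 was at 23.6 normalized reads in edited 6 (32 reads), and the other edited libraries were at 4.01 to 10.3. PTGR2 was at 27.6 in control 6 (25 reads), and the other controls were at 86.7 to 122. Control 6 had the highest share of reads on the 18S ribosomal RNA gene RN18S1 (36.6%, against 12.4% to 25.2% in the other controls) and held the lowest control value for 27.1% of tested genes, and whether that bears on PTGR2 was not tested.

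Of 22 wider-list genes, 2 differed between species by a test of the difference itself. On the log2 scale FAM213B changed by -2.32 in mouse and stood at 0.23 in bovine (difference -2.55, adjusted p = 0.008, limma standard errors), and PPARD was at 1.26 and -0.40 (difference 1.66, adjusted p = 0.031). Species and stage cannot be told apart here.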

How the results depend on the processing

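Mouse Ptges stayed between -4.14 and -3.81 and bovine PTGES between -1.74 (without control 2) and -0.87 when 1 library was left out, and the mean of PTGES was below the stricter filter of 50. The mouse counts leaned on few libraries: 580 (without control 1) to 2588 (without edited 2) genes passed, and 601 without control 2, against 1742 with all. Of the wider list 4 to 11 passed, 4 without control 1 or control 2, and 5 at a mean of at least 50, against 8. The 8 include Pla2g4e, which passed the filter only through the edited group. Scaling to equal totals moved the median of all genes from -0.005 to 0.12 in mouse and from 0.011 to 0.13 in bovine. It turned the split of mouse calls from 788 higher and 954 lower to 1113 and 682. In bovine 5 genes passed with DESeq2 against 1 with limma. The number of wider-list genes that differed between species, 2, was 1 with DESeq2, 0 at a mean of at least 50 and 0 to 4 without 1 library (0 without mouse control 1 or control 2); these fits were run after the data were seen. No wider-list gene passed in bovine and none of the 4 shared genes differed between species under any setting run; edgeR gave no standard error for the latter.

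Genes near 0 changed sign. Among non-replicate settings these were, in mouse, Fabp5 (0.0054 with equal totals, 0.052 without the most abundant feature), Ptgis (0.014 by the latter), Abcc4 (0.030, 0.075) and Tor1a (0.0025), and, in bovine, PTGR2 (-0.10 with edgeR and -0.10 with DESeq2, -0.014 with equal totals without the most abundant feature), ANXA1 (0.084 with equal totals), MGST2 (0.012 with a pseudocount of 5, 0.072 with edgeR, 0.066 with DESeq2, 0.12 with equal totals) and CBR3 (0.082 with edgeR, 0.079 with DESeq2, 0.063 with equal totals). Leaving out 1 library gave, in mouse, Ptges3 -0.053 to 0.26, Ptgr1 -0.52 to 0.14, Fabp5 -0.60 to 0.36, Elovl5 -0.53 to 0.13, Alox12 -0.045 to 0.34, Lta4h -0.56 to 0.17, Cbr1 -0.0019 to 0.47, Ptgis -0.40 to 0.084, Plaa -0.042 to 0.37, Pla2g16 -0.44 to 0.066, Rxra -0.26 to 0.44 and Abcc4 -0.49 to 0.31. In bovine it gave PTGES3 -0.072 to 0.13, PTGR2 -0.30 to 0.12, ANXA1 -0.19 to 0.11, EPHX2 -0.044 to 0.49, MGST1 -0.10 to 0.59, MGST2 -0.15 to 0.24, MGST3 -0.37 to 0.10, AKR1B1 -0.16 to 0.46, FAM213B -0.062 to 0.50, CBR3 -0.38 to 0.13, PLA2G15 -0.068 to 0.23, PAFAH2 -0.0057 to 0.47 and ABCC1 -0.33 to 0.021. The cause of these changes was not tested.

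Same-numbered mouse samples deviated together with r = 0.11. Each mouse number matched its own best, which with 2 libraries per group cannot decide a pairing. In bovine r ran from -0.19 to 0.34 with 1 of 6 numbers matching its own best. The numbers were not taken to pair samples in either species. With the replicate block 1816 mouse genes, 9 of the wider list and 1 bovine gene passed, and Stip1 missed the threshold (adjusted p = 0.058, limma). Fits without 1 mouse library assume that the lone sample varies like the other group. Low counts limit Ptgs2 in mouse and PTGS1, PTGES2 and PLA2G4A in bovine.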
